A study of Gelatoporia subvermispora and Trametes versicolor with 24 samples.

Results

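Antioxidants were tested in shaken cultures of Gelatoporia subvermispora, a white-rot basidiomycete that breaks down lignin in wood. The comparison took 6 of the 24 libraries of the series, picked by their sample titles, and set 3 libraries from agitated cultures with antioxidants against 3 from agitated cultures without them. The cultures with antioxidants received α-tocopherol (1 mM) together with ascorbic acid (5 mM), 30 min before the aromatic acid 4-hydroxybenzoate. All 6 came from strain FP-105752, shaken at 220 rpm and 28 °C in 25 mL Czapek-Dox medium that held cellobiose (15 mM), a disaccharide released from cellulose. In both groups about 2 mM 4-hydroxybenzoate was added on day 10 and mycelium was taken 24 h later, on day 11. Both groups were thus exposed to 4-hydroxybenzoate, and the effect of that acid itself cannot be read from them. The title of agitated replicate 1 without antioxidants gives it as agitated, while its other labels carry no entry for agitation. Whether replicates were separate cultures is not stated, and the p-values then cover only the spread between libraries, which may be technical. The 6 static libraries of the same strain, 3 with and 3 without the same antioxidants, served for the estimate of the spread and for comparison. The static cultures were not shaken. They had the same 4-hydroxybenzoate, cellobiose, temperature, culture volume and days of addition and harvest.

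Ascorbic acid is a water-soluble electron donor that reduces radicals and quinones, and α-tocopherol is a lipid-soluble one that stops chains of lipid peroxidation in membranes. White-rot fungi attack lignin outside the cell with peroxidases and laccases, enzymes that work through radicals. They handle the aromatic acids that arise with intracellular hydroxylases and ring-opening dioxygenases. Superoxide dismutases, catalases and the glutathione and thioredoxin systems remove reactive oxygen species in fungi. None of these families could be looked up, because the deposited tables give genes as running numbers without names, products or sequences. Lists of such families were drawn up but could not be filled, and neither could the identity of the mycelium be checked against known genes. Genes are therefore described by their level and response, and 4 are named by number.

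The agitated libraries with antioxidants held 17489642, 21773783 and 16696073 reads in genes, and those without held 25707667, 22027586 and 20673893. The scaling factors of the trimmed mean of M-values (TMM) method, which corrects for differences in composition, were 0.853, 0.874 and 1.04 with antioxidants and 0.983, 0.948 and 0.909 without. Antioxidant replicate 3 stood apart from its group. Its log2 CPM (counts scaled to library size) correlated across genes at 0.975 and 0.972 with replicates 1 and 2, which correlated at 0.995 with each other. The libraries without antioxidants correlated with each other at 0.993 to 0.996. For 7727 better-counted genes, whose mean log2 CPM was 3 or more, the median absolute log2 difference from replicate 3 was 0.228 for replicate 1 and 0.265 for replicate 2, while replicates 1 and 2 differed by 0.0900. Without antioxidants the corresponding differences lay between 0.0748 and 0.0978. The total counts of called genes, of 2-fold changes and of wide gaps are given with and without antioxidant replicate 3. Most other results are given only with it.

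Antioxidants changed 2343 of 10529 tested genes in agitated culture, or 22.3%, with 1224 higher (11.6%) and 1119 lower (10.6%) than in cultures without them. Most changes were small. The median log2 fold change was 0.53 among the higher genes and -0.59 among the lower ones. Changes under 1.5-fold made up 693 of the 1224 rises and 553 of the 1119 falls. Called genes with an estimated change of at least 2-fold numbered 430 (4.08%), of which 214 were rises (2.03%) and 216 falls (2.05%). At 4-fold there were 32 rises and 26 falls. The calls come from edgeR's quasi-likelihood test at a Benjamini-Hochberg adjusted p under 0.05, over all genes tested. The plot of fold change by level shows rises and falls along the whole range of levels. Library values of both groups were fully apart for 1173 of the higher and 1113 of the lower genes. Of all tested genes 41.2% were apart, 20% with antioxidants above and 21.2% with antioxidants below. Scaled by library totals alone, 724 genes were called higher and 1121 lower, which put 39.2% of the calls among the rises instead of 52.2%. Leaving out replicate 1 of the agitated group without antioxidants gave 1438 genes (738 higher, 700 lower). Leaving out its replicate 3 gave 1436 (728 higher, 708 lower).

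**Figure D1:**
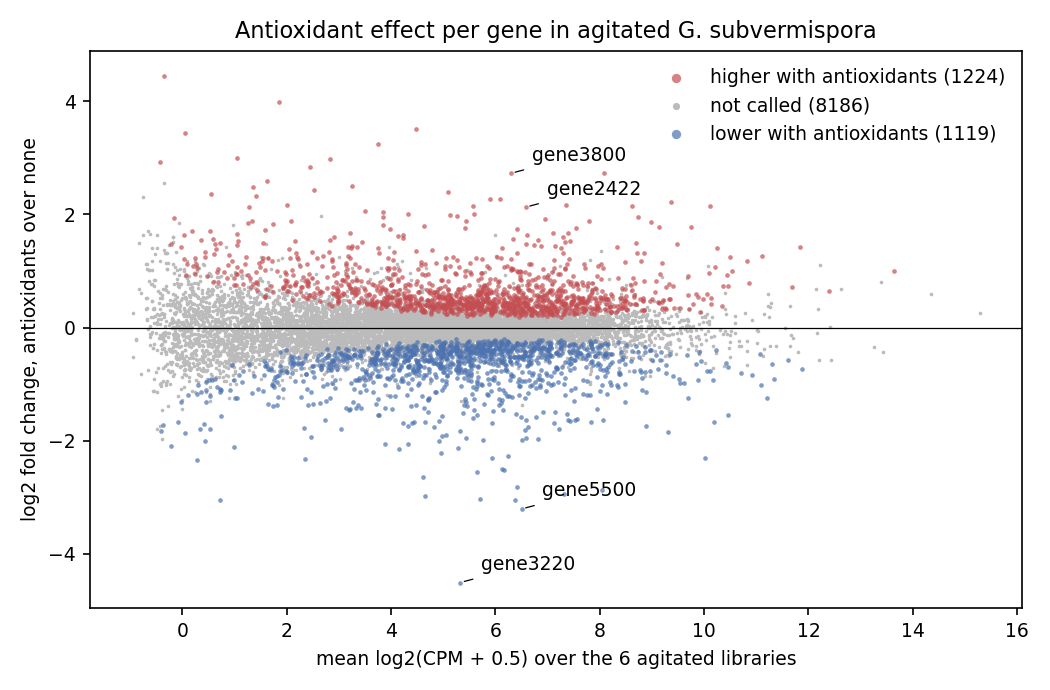
Each point is a gene, with its mean log2(CPM + 0.5) over the 6 agitated libraries on the horizontal axis and its log2 fold change, antioxidants over none, on the vertical axis. The 1224 genes higher and 1119 genes lower with antioxidants lie on both sides of 0 at all levels, and the 4 named genes are marked.

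The genes called higher took 18.9, 20.96 and 19.7% of gene reads in the antioxidant libraries, against 12.6, 12.6 and 11.7% in the libraries without. Their mean share was 19.8% ± 1.05 with antioxidants and 12.3% ± 0.538 without (SD, n = 3 each). The genes called lower took 8.78, 8.74 and 9.46% of gene reads with antioxidants, against 16.3, 15.4 and 15.1% without. Their mean share was 8.99% ± 0.406 with antioxidants and 15.6% ± 0.636 without (SD, n = 3 each). These genes were picked by the same comparison, so the shares describe how much of the transcript pool moved and are not a test. In bulk mycelium, fewer cells of a kind and less RNA per cell cannot be told apart. The genes not called held 71.2% ± 1.06 of gene reads with and 72.04% ± 1.07 without antioxidants (SD, n = 3 each).

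The share of genes called increased with their level. When the tested genes were split into 5 groups of near-equal size by mean log2 CPM over the 6 libraries, 9.59, 18.6, 24.7, 28.8 and 29.6% were called from the lowest group to the highest. CPM is not corrected for gene length, so level here means reads per gene. In the highest group, with a median of 198 CPM, 359 genes rose and 265 fell. In the lowest group, with a median of 1.59 CPM, 113 rose and 89 fell. The size of the called changes ran the other way, with 52.0% of the called genes of the lowest group at 2-fold or more and 15.4% of those of the highest. Weakly counted genes need a larger change to be called, and its part in this pattern was not tested. Among the 100 genes with the highest mean CPM in the 6 libraries, 19 rose and 17 fell, or 36% called against 22.3% of all tested genes, and 13 of them changed by 2-fold or more.

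**Figure D2:**
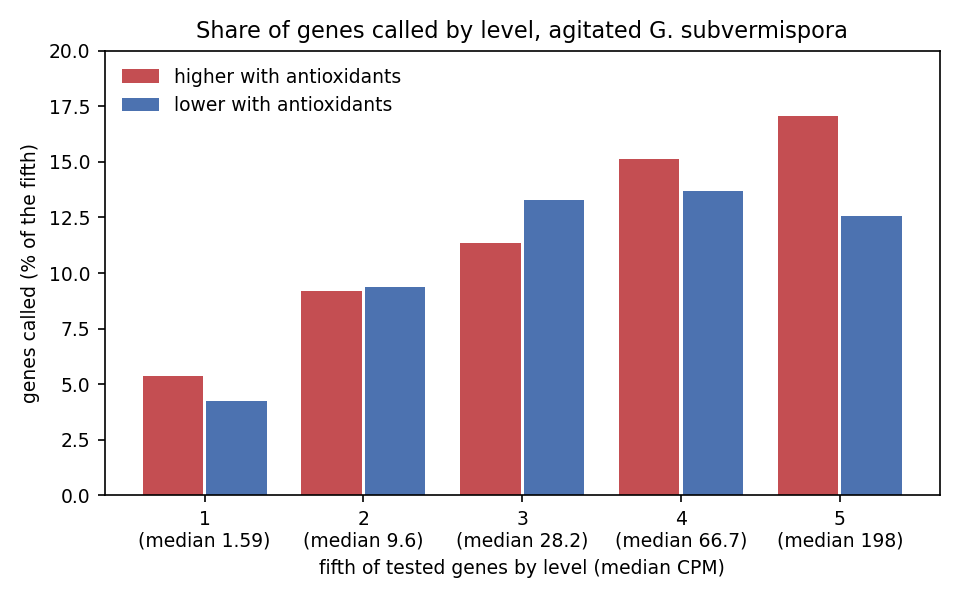
Bars give the percentage of genes called higher or lower with antioxidants in 5 groups of tested genes, ordered by mean level over the 6 agitated libraries, with each group's median CPM below it. Rises make up 5.37% of the lowest and 17.05% of the highest group. Falls make up 4.23% of the lowest, 13.7% of the fourth and 12.6% of the highest group.

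Few genes lay under 1 CPM in all libraries of one group and above it in all libraries of the other. In the antioxidant libraries 28 genes stayed under 1 CPM while all 3 libraries without antioxidants were above it, and 16 of them were called lower. The 16 had a median of 0.525 CPM with antioxidants and 1.44 CPM without, and the highest mean among them without antioxidants was 2.92 CPM. In the other direction, 11 genes were over 1 CPM in all antioxidant libraries and under it in all libraries without, and 8 of them were called higher. Their median was 1.67 CPM with antioxidants and 0.606 CPM without. These genes were picked by the values that the calls also use, which favours a high called share. Nothing is read from it against the 10.6% of all tested genes called lower and the 11.6% called higher.

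The named genes are the 2 falls and the 2 rises with the widest gap in their own direction, measured between the nearest libraries of the groups among the better-counted genes. Falls were parted more widely than rises with all libraries in, and the tenth widest fall, with a log2 gap of 2.13, exceeded the widest rise, with 1.85. gene3220 had 14.01, 8.35 and 3.804 CPM with antioxidants, against 209, 164 and 217 CPM without. The nearest libraries of the 2 groups were 11.4-fold apart on the scale of CPM + 0.5, the widest gap of any gene that met the rule. Its log2 fold change was -4.51 (SE 0.43, edgeR adjusted p = 7.71e-05). In static culture gene3220 was low throughout, with 3.56, 5.32 and 10.3 CPM with antioxidants, against 3.82, 3.54 and 4.26 CPM without. The antioxidant effect on gene3220 in agitated culture differed from that in static culture by -5.18 on the log2 scale (SE 0.62, edgeR adjusted p = 0.00109).

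gene5500 had 37.0, 26.3 and 26.0 CPM in agitated cultures with antioxidants, against 257, 279.8 and 287 CPM without. The groups were 6.86-fold apart at their nearest libraries, and the log2 fold change was -3.21 (SE 0.27, edgeR adjusted p = 3.5e-05). Unlike gene3220, gene5500 was abundant in both static groups. It had 253, 202 and 123 CPM in static cultures with antioxidants, against 282, 207 and 183 CPM in static cultures without. The static change, a log2 fold change of -0.21 (SE 0.24), did not pass the test, at an edgeR adjusted p of 0.807. The agitated effect differed from the static one by -2.99 (log2, SE 0.35, edgeR adjusted p = 0.000943).

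gene3800 had 139.7, 131 and 370.5 CPM in agitated cultures with antioxidants, against 29.6, 36.2 and 31.1 CPM without. The lowest antioxidant library was 3.595-fold above the highest library without on the scale of CPM + 0.5, and replicate 3 was far above the other 2. The log2 fold change was 2.73 (SE 0.34, edgeR adjusted p = 0.000339), or 2.07 without antioxidant replicate 3 (edgeR adjusted p = 1.25e-07). In static culture gene3800 had 54.6, 50.6 and 59.9 CPM with antioxidants, against 40.7, 38.04 and 36.2 CPM without. The static groups did not overlap either, but the log2 fold change of 0.53 (SE 0.32) had an edgeR adjusted p of 0.582. The agitated effect exceeded the static one by 2.20 (log2, SE 0.46, edgeR adjusted p = 0.0166), or by 1.54 (edgeR adjusted p = 1.42e-05) without antioxidant replicate 3.

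gene2422 was the most even of the rises named, with 182, 211 and 206 CPM with antioxidants, against 41.8, 51.9 and 43.2 CPM without in agitated culture. The nearest libraries were 3.48-fold apart, and the log2 fold change was 2.13 (SE 0.26, edgeR adjusted p = 0.000315). In static culture gene2422 had 80.0, 80.0 and 136.8 CPM with antioxidants, against 38.7, 73.5 and 74.5 CPM without. These groups did not overlap, and the static log2 fold change of 0.66 (SE 0.25) had an edgeR adjusted p of 0.348. The agitated effect exceeded the static one by 1.47 (log2, SE 0.36, edgeR adjusted p = 0.029). That difference was no longer called when any of 8 libraries was left out. These were agitated antioxidant replicates 2 and 3, static antioxidant replicates 1 and 2, agitated replicates 1 and 3 without antioxidants and static replicates 2 and 3 without antioxidants. Over these fits it lay between 1.33 and 1.46, with edgeR adjusted p values up to 0.0771.

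**Figure D3:**
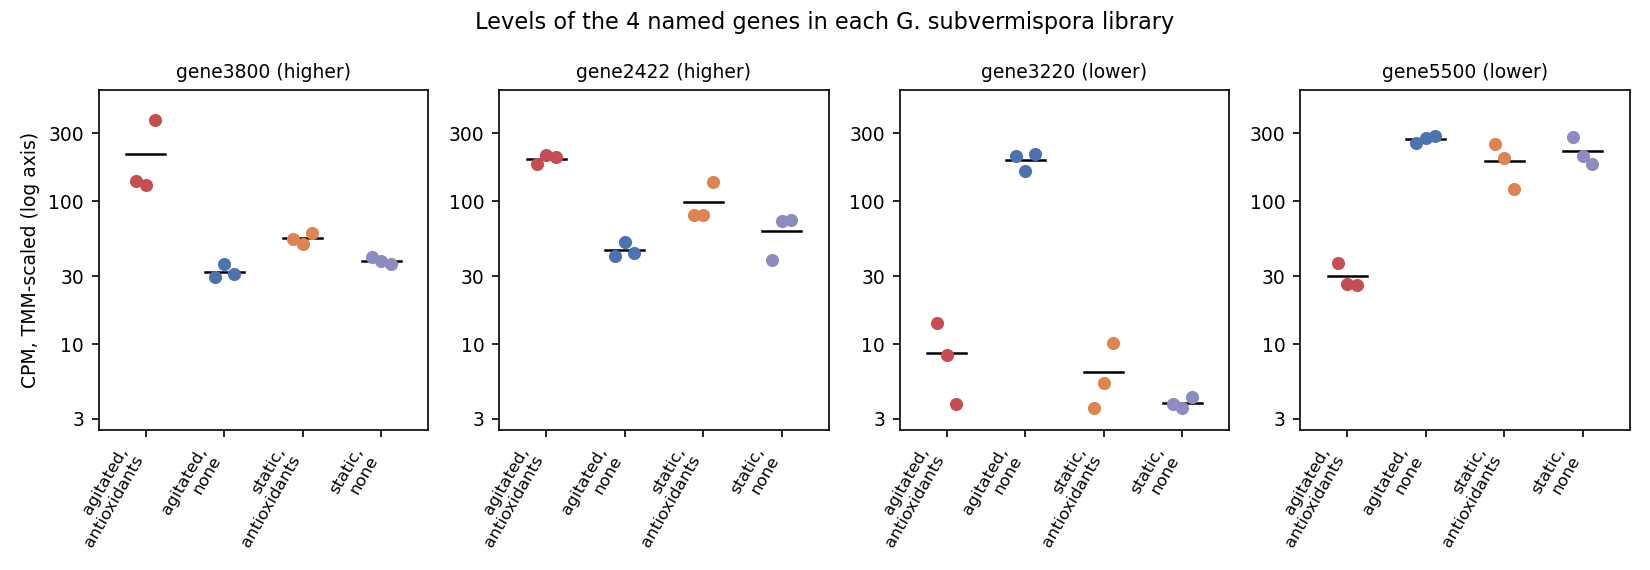
TMM-scaled CPM on a log axis for gene3800, gene2422, gene3220 and gene5500 in each of the 12 G. subvermispora libraries, with bars at the mean of each group of 3. In agitated culture the groups with and without antioxidants are apart for all 4 genes. In static culture gene3220 is at 3.54 to 10.3 CPM and gene5500 at 123 to 282 CPM in the 6 libraries.

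With all 3 antioxidant libraries, more falls than rises passed 2-fold in every library, and this rested on antioxidant replicate 3. Each antioxidant library was compared with the mean of the libraries without, on the scale of log2(CPM + 0.5). Of the 216 genes that fell by 2-fold or more, 113 were at least 2-fold lower in each of the 3 antioxidant libraries. Of the 214 that rose as much, 56 were at least 2-fold higher in each of the 3, while 101 were so in only 2. In replicates 1 and 2 alone, 137 of the same 216 falls and 137 of the same 214 rises were at least 2-fold in both. Among the genes called and changed 2-fold without replicate 3, this held for 146 of 202 falls and 173 of 227 rises, leaving out rises that were not tested with all libraries. All of these genes were chosen by values of the libraries counted, which favours high counts. All 216 falls had the same direction in all 3 libraries. For 19 of the 214 rises, replicate 3 lay at or below the mean of the libraries without antioxidants, and replicates 1 and 2 did so for none.

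The gap between the groups showed the same dependence on replicate 3. The 2 groups were parted by at least 2-fold for 84 genes that were lower with antioxidants, 0.798% of the tested genes, and for 32 that were higher, 0.304%. Leaving out antioxidant replicate 1 or 2 gave 103 and 94 lower genes, and 35 and 45 higher ones. Leaving out antioxidant replicate 3 gave 106 lower and 124 higher genes. Fewer libraries always part more easily, but the number of higher genes changed by far the most when replicate 3 was left out.

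Antioxidant replicate 3 was at least 2-fold below both replicates 1 and 2 for 302 of the 7727 better-counted genes, and at least 2-fold above both for 53. For the other agitated libraries the counts of genes so far from both other libraries of their group did not exceed 12 above or 3 below. As a percentage of the TMM-scaled library size, the 302 genes came to 10.4, 12.6 and 3.45% in antioxidant replicates 1, 2 and 3. The 3 libraries without antioxidants had 6.27, 6.66 and 6.399%. These percentages are not comparable with the shares of gene reads given above, which were not TMM-scaled. The median level of the 302 genes was 71.0, 74.1 and 25.8 CPM in antioxidant replicates 1, 2 and 3, against 61.9, 67.4 and 62.9 CPM without. In replicate 3, 63 of the 302 lay within 1.5-fold of the mean without antioxidants. For 174 of them it was replicates 1 and 2 that both did. These genes were picked by the values of replicate 3, so their levels are a description.

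**Figure D4:**
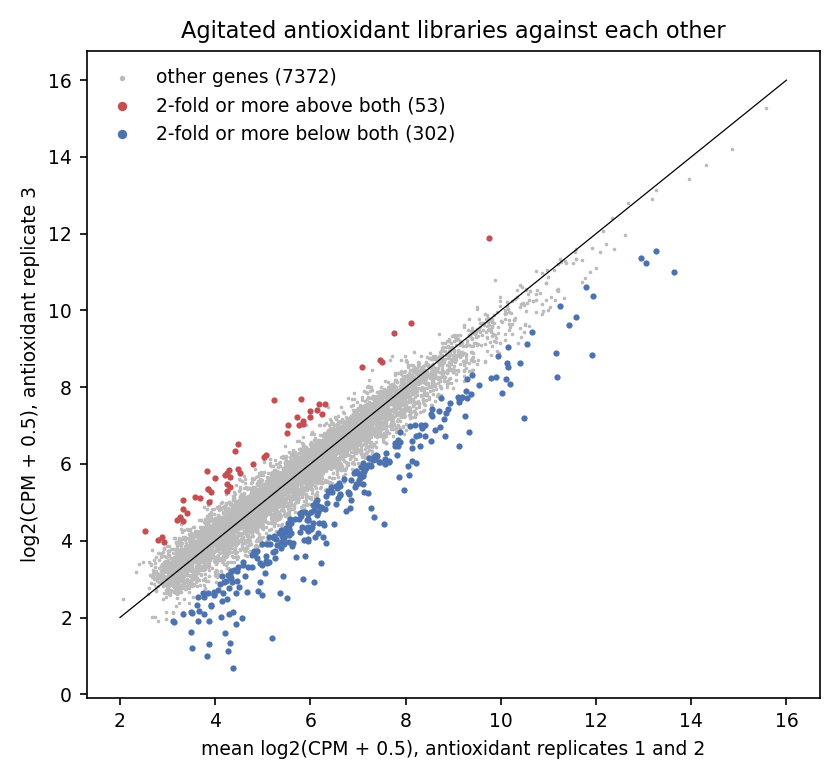
Each point is 1 of the 7727 better-counted genes, with the mean log2(CPM + 0.5) of agitated antioxidant replicates 1 and 2 on the horizontal and that of replicate 3 on the vertical axis, and a line of equal values. The 302 genes at least 2-fold below both other replicates outnumber the 53 at least 2-fold above both.

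Without antioxidant replicate 3, 2565 of 10578 tested genes were called (24.2%), 1374 higher and 1191 lower. Of the 1224 genes called higher with all libraries, 1004 were called higher here too, which is 82.0% of the full list and 73.1% of the shorter design's list. Of the 1119 lower genes, 927 were called lower in both, or 82.8% and 77.8%. No gene was called in opposite directions. Another 370 genes were called higher only without replicate 3, and their median log2 change against the cultures without antioxidants was 0.44, 0.47 and -0.13 in antioxidant replicates 1, 2 and 3. For 264 genes called lower only without it, the medians were -0.38, -0.44 and -0.02. Called genes with an estimated change of at least 2-fold numbered 430 (4.07%) without replicate 3, the same number as with it, and 325 of the genes were shared, 75.6% of each list.

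In static culture the same antioxidants changed 48 genes (0.456%) in the same fit, 10 higher (0.095%) and 38 lower (0.361%), and 1217 had an unadjusted p under 0.05, against 3762 in agitated culture. With the replicate number as a block shared by all 12 libraries, the static count was 28. Same-number static libraries correlated at over 0.1 and agitated ones did not, so this is not a pairing within static culture alone. All 12 libraries share the estimate of the spread, so agitated libraries bear on it too. The static count was 31 without agitated antioxidant replicate 1 and 244 without agitated antioxidant replicate 3. It was 27 without replicate 1 and 22 without replicate 3 of the agitated group lacking antioxidants, and 248 with DESeq2. Leaving out static replicates 1, 2 and 3 in turn gave 10, 16 and 27 genes for those with antioxidants, and 175, 18 and 13 for those without. Static replicate 1 without antioxidants had 7875324 reads in genes, the fewest of the 12 libraries. The part of its depth in the static count was not tested.

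The difference between the 2 effects was tested directly and was called for 953 genes (9.05%), with 502 effects more positive (4.77%) and 451 more negative (4.28%) in agitated culture. Of the 214 genes that antioxidants raised 2-fold or more in agitated culture, 129 had a different effect in static culture, and of the 216 lowered as much, 135 did. These genes were chosen by the agitated values that the difference also uses, which favours a high share, and nothing is read from it against the 9.05% of all tested genes. For the 214 raised genes the medians were 29.2 CPM with and 10.3 CPM without antioxidants in agitated culture, and 21.3 CPM with and 22.1 CPM without in static culture. For the 216 lowered genes the medians were 18.7 CPM with and 65.0 CPM without antioxidants in agitated culture, and 34.04 CPM with and 38.1 CPM without in static culture. The static libraries entered the choice of these genes only through the shared estimate of the spread, the scaling and the filter. Their median static log2 fold change was -0.05 for the raised and -0.07 for the lowered genes, against 0.00 for all tested genes. Within 1.5-fold of no change in static culture were 79.0% of the raised and 81.9% of the lowered genes, against 95.3% of all tested genes. Of the raised and lowered genes together, 105 were in the lowest of the 5 groups by level. The part of level in these shares was not tested. Without agitated antioxidant replicate 3 the count was 1496 in place of 953. It was 504, 522 and 459 when replicates 1, 2 and 3 of the agitated group lacking antioxidants were left out in turn. It was 541, 640 and 617 without static antioxidant replicates 1, 2 and 3. For the static group lacking antioxidants it was 1184, 482 and 589 without replicates 1, 2 and 3.

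**Figure D5:**
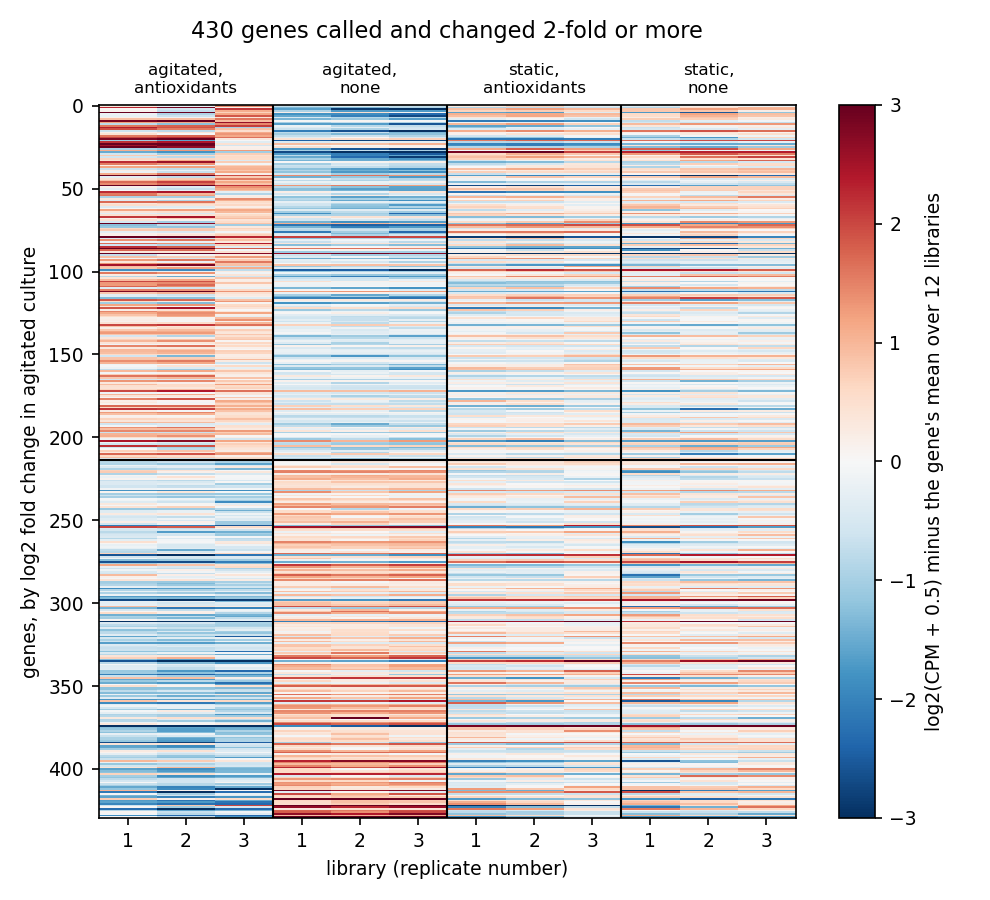
Rows are the 430 genes called and changed 2-fold or more by antioxidants in agitated culture, ordered by their log2 fold change, and columns are the 12 G. subvermispora libraries. Color gives log2(CPM + 0.5) minus the gene's mean over the 12 libraries. The upper 214 genes are higher and the lower 216 lower in the agitated antioxidant libraries than in those without. In static culture the median log2 fold change of the same genes is -0.05 for the raised and -0.07 for the lowered ones.

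Genes with neighbouring running numbers tended to be called in the same direction. Of the neighbours tested next to a higher gene, 17.8% were also higher and 7.54% were lower, where 11.7% of all neighbours were higher. Of the neighbours of a lower gene, 20.99% were also lower and 8.13% higher, where 10.8% of all neighbours were lower. Runs of 3 or more consecutive numbers held 84 higher genes in 26 runs and 126 lower genes in 39 runs. The sources used here do not say whether the numbers follow the order of genes on the genome, nor whether reads were counted by strand. Neighbours that overlap could share reads.

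The composition of the libraries overlapped between the groups. The 10 most abundant genes of each library took 17.9, 13.1 and 12.6% of gene reads with antioxidants, against 9.24, 10.6 and 15.1% without (exact permutation test, two-sided, p = 0.3). The 100 most abundant took 35.1, 32.02 and 27.95% with antioxidants, against 27.6, 28.8 and 32.1% without (exact permutation test, two-sided, p = 0.5). With 3 against 3 libraries this test cannot give a p under 0.1. Reads left out for low mapping quality came to 49.1, 37.6 and 42.0% of all reads with antioxidants, against 33.7, 36.5 and 46.9% without (exact permutation test, two-sided, p = 0.5). The corresponding differences for reads not aligned, reads outside genes and reads fitting several genes had exact p values of 0.3, 0.4 and 0.7. In all 10 library measures were compared, and the Benjamini-Hochberg adjusted p was 0.7 for each.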

How the data were processed

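Each library came with a deposited table of raw counts, whole numbers of reads per gene. Per the labels' protocols, total RNA from frozen mycelium was treated with DNase and made into libraries with a stranded total RNA kit. FastQC, HTSeq, Bowtie and Bowtie2 appear, without versions, in the submitters' processing notes. Build, annotation and strand setting: not given in the sources used here. HTSeq's summary lines stayed out of library sizes and tests; in the 6 agitated libraries low mapping quality took 33.7 to 49.1% of reads, so near-identical gene copies are uncertain.

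Groups came from sample titles; the Trametes versicolor libraries were not used here. edgeR 4.0.16 in R 4.3.3 was run on the 12 G. subvermispora libraries as 4 group means (8 residual degrees of freedom), after filterByExpr (10529 of 12313 genes) and TMM scaling. Calls needed an adjusted p under 0.05. Each SE came from the log2 fold change and its F statistic. Per-library changes and gaps used CPM + 0.5. Alternatives used limma 3.58.1 and DESeq2 1.42.0, other scalings and filters, the agitated libraries alone, a replicate block and each replicate left out. On simulated counts for antioxidants in agitated culture (10466 genes, changes set in genes of at least 10 CPM), 91 of 100 2-fold and 98 of 100 4-fold changes were found, with 10 false calls; libraries that stand apart were not simulated.

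The named genes are the 2 rises and 2 falls with the widest gap between groups, among called genes that averaged 3 or more in log2 CPM and whose groups were fully apart. The comparison, rule and lists were chosen with earlier results of these data known. The gene families listed could not be filled, since no table pairs numbers with names, so the rule's part for lists was not used. Deviations from group means of same-number libraries, with against without antioxidants, correlated across genes at -0.05, 0.09 and -0.02 in agitated culture, so these numbers do not pair. In static culture they correlated at 0.25, 0.14 and 0.32, which meets the criterion for pairing (every pair over 0.1) from the counts alone; what a number stands for is not in the labels. Replicates differed by more than sampling noise (chi-square per degree of freedom at least 25.9 in agitated groups). For well-counted genes counting error is small beside the spread between libraries; the fewest reads for a named gene were 33, for gene3220 in a static library.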

Additional observations from a re-analysis of the deposited data

Results flagged for a closer look

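The antioxidant effect differed between agitated and static culture for 953 genes by edgeR's test of the difference (adjusted p under 0.05). The named genes were all among them. The effect in agitated culture exceeded that in static culture by 2.20 for gene3800 and by 1.47 for gene2422 on the log2 scale (edgeR adjusted p = 0.0166 and 0.029). It was more negative in agitated culture by -5.18 for gene3220 and by -2.99 for gene5500 (edgeR adjusted p = 0.00109 and 0.000943). The genes were named for their wide gap in agitated culture, which favours a large agitated effect.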

How the results depend on the processing

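The number of genes called in agitated culture was 1436 to 2565 with a replicate left out, and 4167 (2139 higher, 2028 lower) with limma-voom and library quality weights, an alternative chosen after seeing the data that gave antioxidant replicate 3 a weight of 0.14. Fitted on the 6 agitated libraries alone, without the static libraries in the estimate of the spread, 1701 genes were called (849 higher, 852 lower). Rises ranged from 728 to 1374 and falls from 700 to 1191 with a replicate left out, and rises numbered 724 with library totals alone. Genes called and changed by 2-fold or more stayed within 1.5 times of 430 in every alternative run, at 306 to 486. The replicate block gave 2091 genes in agitated culture, 28 in static culture and 714 for the difference between the effects. That difference was called for 459 to 1496 genes with a replicate left out, 1516 with DESeq2 and 2628 with quality weights, and the static count was 10 to 244 with a replicate left out, 248 with DESeq2 and 707 with quality weights. Library totals and upper-quartile scaling put 38.03% and 43.6% of the called differences among those more positive in agitated culture, against 52.7%, and upper-quartile scaling put 32% of the static calls among the rises, against 20.8%. The share of ambiguous reads, 0.0122 percentage points higher with antioxidants, ranged from -0.0037 to 0.0254 with a replicate left out, the lowest without antioxidant replicate 1. The changes of the 4 named genes in agitated culture were called with the same sign in all 16 alternatives. These genes were named among called genes for a wide gap in the same libraries, which favours such an outcome. The differences for gene3800, gene3220 and gene5500 were called in all 21, and that for gene2422 in 13. With quality weights the difference for gene3220 was -4.52 in place of -5.18. Apart from the scaling, the causes were not tested, and leaving out a replicate alters group size and values together. Weakly counted genes set the limit of depth, with a median of 1.59 CPM in the lowest of 5 groups by level.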

Other observations

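Of the 4 genes with the most reads over the 6 agitated libraries, 3 lie within 6 consecutive running numbers and varied widely inside both groups. The most abundant stood at 62405, 37841 and 39613 CPM with antioxidants, against 22055, 29566 and 65574 CPM without (edgeR adjusted p = 0.688, log2 fold change 0.26, SE 0.40). The second stood at 47465, 18378 and 18819 CPM with antioxidants, against 10736, 15301 and 30024 CPM without (edgeR adjusted p = 0.351). The highest library of each group was the same for both genes, and these 2 libraries also had the largest shares of reads of low mapping quality in their groups, 49.1% with and 46.9% without antioxidants. The part of such reads in these levels was not tested.

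Among the genes that were called, the third most abundant gene overall rose, with 19132, 21613 and 14262 CPM with antioxidants, against 8473, 10017 and 8901 CPM without (edgeR adjusted p = 0.0127, log2 fold change 1.01, SE 0.24). For 6 of the 20 most abundant genes, antioxidant replicates 1 and 2 were above every library without antioxidants and replicate 3 was not. The seventh had 10623, 15291 and 2047 CPM with antioxidants, against 5872, 5789 and 5679 CPM without, and the tenth had 9013, 10601 and 2980 CPM with antioxidants, against 3258, 3954 and 3291 CPM without. Neither of these was called (edgeR adjusted p = 0.36 and 0.234), while 2 of the 6 were called higher. Of those, the gene ranked 16 had 7764, 9264 and 2420 CPM with antioxidants, against 2194, 2676 and 2354 CPM without (edgeR adjusted p = 0.0263). The gene ranked 19 had 4063, 5568 and 3423 CPM with antioxidants, against 2055, 3802 and 2101 CPM without (edgeR adjusted p = 0.0465). The genes described were picked after their values were seen, the 6 by this pattern among the 20 most abundant. The calls use the same values, so nothing is read from 2 of 6 against the 11.6% of all tested genes called higher.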
